A study of Homo sapiens with 36 samples.

Results

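Mitochondrial ribosomal protein genes were taken as the protein-coding genes of GENCODE release 29 with the symbol MRPL or MRPS, a number and, for some, 1 further letter. 78 genes met this rule, 49 named MRPL for the large subunit and 29 named MRPS for the small subunit. All 78 were listed in each of the 6 deposited tables, which held 58219 genes for RNA and 43582 genes for ribosome footprints. The cells were WiT49, a cell line from an anaplastic Wilms tumor, which is a childhood kidney cancer. Treated cells were given actinomycin D (actD), a compound that intercalates into DNA, at a dose of 2 nM. Control cells were given only the vehicle, which was dimethyl sulfoxide (DMSO). Exposure lasted 6 h, 72 h or 2 weeks. The longest was given in 2 cycles of 7 days, in which treatment for 3 days was followed by drug-free medium for 4 days. Each of the 12 groups (2 assays, 3 time points, actD or DMSO) held 3 libraries. The 18 RNA libraries measured total RNA, and the 18 footprint libraries measured the short fragments that translating ribosomes protect from nuclease. All groups came from this 1 line with no genetic change named, and nothing in the labels says that replicates were separate cultures, so the p-values measure only the spread between these libraries. For RNA at 2 weeks the sample titles contradict the names of the libraries, so its arms are referred to by those names, as named actd and named dmso.

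Mitochondria hold their own ribosome, which translates the few proteins encoded by mitochondrial DNA, all of them parts of the respiratory chain and of ATP synthase. Its ribosomal RNAs are transcribed inside the mitochondrion, while its proteins are encoded in the nucleus, made by cytosolic ribosomes and imported. Some of these proteins descend from bacterial ribosomal proteins and others are found only in mitochondrial ribosomes. Of the 49 MRPL genes, 30 encode homologs of bacterial proteins and 19 encode proteins specific to mitochondria. Of the 29 MRPS genes, 16 are bacterial homologs and 10 are specific to mitochondria. The other 3 carry symbols that do not match their place. MRPS30 and MRPS18A encode proteins that sit in the large subunit, and MRPS36 encodes a component of the 2-oxoglutarate dehydrogenase complex. Large and small subunit genes are split by symbol throughout, except in the comparison by bacterial homology, so these 3 were counted as small subunit. The 78 genes lie on 21 chromosomes.

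Some short motifs were more frequent in the promoters of these genes than in other promoters, and the stretches below were chosen to show them. The exception is the stretch of MRPL18, which shows CCAAT, a motif that was less frequent. Most members lacked any given one. Of the 78 members, 69 had an entry in a RefSeq promoter table (GRCh38.p14) that spans 250 bases before to 50 bases after each start. The letters CCGGAAG, the core bound by ETS-family factors, stood on either strand in 42.0% of these 69 windows, against 14.4% of the windows of 14896 protein-coding genes and 10.7% of all 27305 windows of 300 bases. AAGATGGCG, the core bound by YY1, stood in 18.8% of the members' windows against 2.83% and 1.85%. GCGCATG, part of the site of NRF1, stood in 10.1% against 5.92% and 4.67%. CCAAT, bound by NF-Y, stood in 28.99% against 36.4% and 35.7%, and TATAAA in 2.90% against 9.37% and 11.95%. The motifs CCGGAAG and AAGATGGCG can share the letters AAG, and no 2 motifs overlap in the stretches shown. The large and small subunit windows held CCGGAAG in 40.5% of 42 and 44.4% of 27. These matches are descriptions of letters and not of bound factors. The first 7 stretches are the 100 bases directly before the RefSeq start, written 5′ to 3′ on the gene's strand, with each match to a searched motif in capitals. The first 6 show the ETS-type letters in genes of both subunits and the 7th shows the NRF1-type letters. The last 4 are 30-base stretches around 1 match each, from members whose actD and DMSO libraries did not overlap in RNA at 72 h. Not every such member is shown.
MRPL3 (chr3:131502972-131503071, minus strand): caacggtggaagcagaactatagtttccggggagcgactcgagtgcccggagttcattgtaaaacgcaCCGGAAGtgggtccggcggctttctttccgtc
MRPL20 (chr1:1407294-1407393, minus strand): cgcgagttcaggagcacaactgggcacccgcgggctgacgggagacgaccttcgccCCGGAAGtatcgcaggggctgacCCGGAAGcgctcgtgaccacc
MRPL54 (chr19:3762582-3762681, plus strand): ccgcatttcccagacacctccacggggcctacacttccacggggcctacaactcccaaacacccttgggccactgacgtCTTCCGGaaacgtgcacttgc
MRPL58 (chr17:75012570-75012669, plus strand): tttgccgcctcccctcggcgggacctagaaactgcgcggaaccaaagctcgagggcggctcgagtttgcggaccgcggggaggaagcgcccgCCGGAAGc
MRPS18A (chr6:43687792-43687891, minus strand): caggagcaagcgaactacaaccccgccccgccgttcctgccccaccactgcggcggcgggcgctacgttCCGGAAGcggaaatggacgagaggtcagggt
MRPS31 (chr13:40771191-40771290, minus strand): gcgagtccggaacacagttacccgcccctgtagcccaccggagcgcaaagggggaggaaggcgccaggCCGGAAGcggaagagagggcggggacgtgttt
MRPL22 (chr5:154940973-154941072, plus strand): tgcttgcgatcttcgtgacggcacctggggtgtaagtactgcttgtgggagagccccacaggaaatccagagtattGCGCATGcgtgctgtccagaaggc
MRPL52 (chr14:22829813-22829842, plus strand): acccagattcAAGATGGCGacttcctgctt
MRPL48 (chr11:73787800-73787829, plus strand): aatttcagaagCTTCCGGaactaaaatgat
MRPL32 (chr7:42932326-42932355, plus strand): tctgtgcctgtGCGCATGctgaaagcaggg
MRPL18 (chr6:159789740-159789769, plus strand): cggcatttttgtCCAATtagatagccgatg

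Many members also share their start region with a neighbour. In GENCODE release 29, 29 of the 78 (37.2%) had a protein-coding gene on the opposite strand that pointed away and started within 1000 bases, against 12.97% of 19951 protein-coding genes. MRPL46 of the large subunit and MRPS11 of the small subunit form such a pair with each other, with starts 34 bases apart. MRPL32 starts 23 bases from PSMA2, a proteasome subunit gene. In RNA at 72 h the 29 members with CCGGAAG had a median log2 fold change of 0.05, and the 40 matched members without it had a median of 0.05. Members with and without a neighbour of this kind had medians of 0.11 and -0.04.

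Total counts per library were 40221994 to 69240041 in RNA and 152556 to 1281039 in footprints, of which protein-coding genes took 23134 to 283435. The 78 members together held 115676 to 290752 counts in an RNA library and 25 to 1774 in a footprint library, so single genes rest on many RNA counts but on few footprints. The Wilms tumor and kidney progenitor markers IGF2 (1020 to 2359 CPM, the count scaled to a fixed library size), WT1 (3.77 to 37.6 CPM) and NCAM1 (7.14 to 24.7 CPM) were present in every RNA library, while SIX2, CITED1, EYA1, PAX2 and SALL1 stayed under 1 CPM. Markers of blood, endothelium, red cells and liver summed to at most 1.76 CPM in any RNA library, and HBB was at 0 in all 18. Values in CPM here are scaled by the trimmed mean of M-values (TMM). A level is compared between genes per kilobase (kb) of exon or of coding sequence, except in the Spearman correlations, which used CPM.

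In the 72 h DMSO libraries RNA of the members spanned a wide range of levels in both subunits. The median was 13.5 CPM per exon kb over the large subunit genes (3.66 to 61.3) and 14.1 over the small subunit genes (2.53 to 46.6). MRPL39 led the large subunit with 61.3 ± 10.2 CPM per exon kb (SD, n = 3), ahead of MRPL51 with 48.9 ± 10.2 and MRPL47 with 48.6 ± 9.87, and the ranges of these 3 genes overlapped. MRPL48 (4.48 ± 0.495), MRPL23 (3.94 ± 0.935) and MRPL46 (3.66 ± 0.405) were lowest there, again with overlapping ranges. In the small subunit MRPS9 (46.6 ± 0.700) and MRPS35 (44.8 ± 18.4) stood above MRPS21 (33.4 ± 3.44), although the libraries of MRPS35 ranged from 24.1 to 59.4. MRPS25 (5.21 ± 0.666), MRPS11 (4.32 ± 1.14) and MRPS33 (2.53 ± 1.96) were lowest. Across the 78 genes, RNA levels in CPM (not per kb) were ranked in 72 h DMSO. Their order had a Spearman correlation of 0.77 with that at 6 h and 0.78 with the 2-week libraries named dmso. These points share gene length and the authors' counting, so the values are descriptions.

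Footprint levels followed another order than RNA levels. Across the 78 genes the Spearman correlation of footprint CPM with RNA CPM in the 72 h DMSO libraries was -0.007. These values were not per kb, and most members had fewer than 10 footprints in a library. MRPL51 had the highest mean footprint level, 157 ± 166 CPM per coding kb in DMSO and 356 ± 139 in actD, and was also second in RNA. MRPL41, with 77.5 ± 24.8 and 175 ± 46.7, came next in DMSO, and MRPS16 (58.8 ± 52.0) and MRPS34 (55.5 ± 48.5) led the small subunit there. 8 members were listed at 0 in all 18 footprint libraries: MRPL11, MRPL33, MRPL39, MRPL47, MRPL48, MRPL58, MRPS9 and MRPS24. They include the member with the highest RNA level of each subunit, MRPL39 and MRPS9, whose RNA counts at 72 h were 2995 to 4602 and 3243 to 6474. Of 8888 other protein-coding genes within the members' range of RNA counts, 5.95% were listed at 0 in all 18 footprint libraries, against 10.3% of the members. A value of 0 in these tables is given only as a listed value.

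At 6 h no change was detected in the RNA of the mitochondrial ribosomal protein genes. The median log2 fold change over the 78 genes was 0.002 (actD minus DMSO), against 0.02 over all 22669 genes tested. The medians of the large and small subunit genes were 0.004 and -0.03, and 75 of the 78 values lay within 0.5 of 0. None of the 78 passed an adjusted p of 0.05 in edgeR's quasi-likelihood test, where 0% of all genes passed, and none had an unadjusted p under 0.05, against 8.21% of all genes. DESeq2 called none of the members either and 0.9% of all genes. The actD and DMSO libraries did not overlap for 2 members, 1 higher and 1 lower with actD, against 7.66% of all genes higher and 8.17% lower. MRPL13, a homolog of a bacterial large subunit protein, had 45.4, 47.1 and 49.7 CPM with actD and 44.4, 41.8 and 32.3 CPM with DMSO, a log2 difference of 0.26 (SE 0.14, edgeR adjusted p = 0.671). MRPL55, also a bacterial homolog of the large subunit, had 26.9, 25.7 and 13.7 CPM against 37.5, 30.7 and 27.1 CPM, a log2 difference of -0.52 (SE 0.25, edgeR adjusted p = 0.654).

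**Figure D1:**
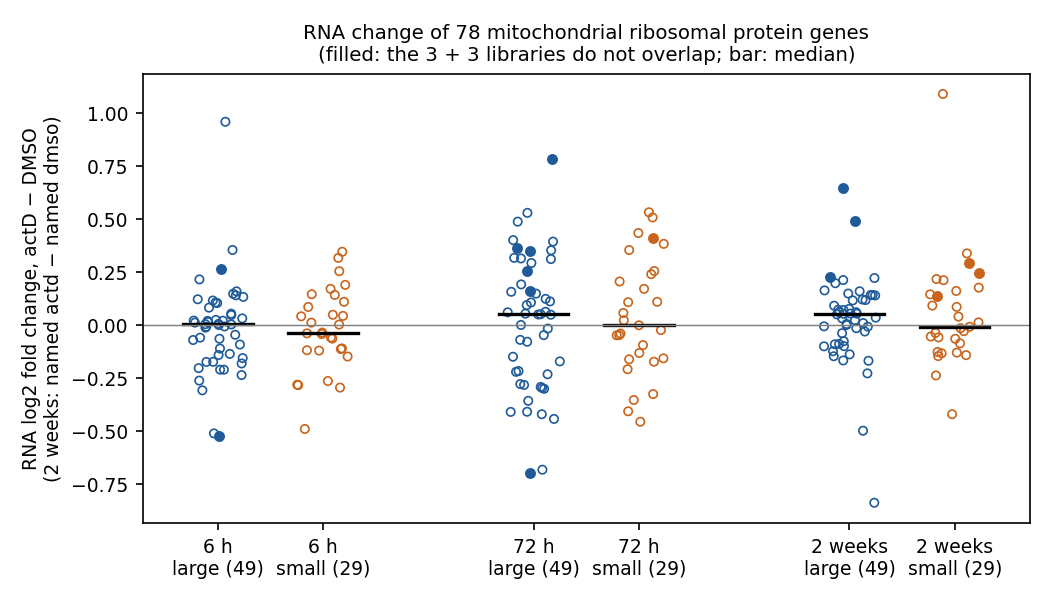
Each point is 1 of the 78 genes, placed by its RNA log2 fold change (vertical axis) at 6 h, 72 h and 2 weeks, with large subunit genes in blue and small subunit genes in orange. Filled points are genes whose libraries do not overlap between the arms and bars are medians, which lie between -0.03 and 0.05 in all 6 columns.

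At 72 h the RNA of the 78 genes again centred near 0, with wider scatter. In bulk RNA of this kind fewer cells that express a gene and less RNA per cell cannot be told apart. The median log2 fold change was 0.05, against 0.02 over all 21195 genes tested, with 0.05 for the large and -0.00006 for the small subunit genes. 72 of the 78 values lay within 0.5 of 0. By edgeR none of the 78 passed the adjusted threshold, which 0.00472% of all genes (1 gene) passed. Unadjusted p was under 0.05 for 2 members, against 13.1% of all genes, and DESeq2 called no member and 2.85% of all genes. 6 members were higher in every actD library than in every DMSO library (10.5% of all genes) and 1 was lower (10.3% of all genes), so such separation was no more frequent among the members than elsewhere.

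The member with the largest positive difference among the separated ones was MRPL52 (chromosome 14, 22829879 to 22835037), which encodes a mitochondria-specific large subunit protein. It had 36.6, 42.0 and 53.1 CPM with actD and 27.3, 27.2 and 22.1 CPM with DMSO. The arms did not overlap, and the log2 difference was 0.78 (SE 0.21, unadjusted p = 0.0071, edgeR adjusted p = 0.267). In 1 fit over all 3 time points, which shares the spread among 18 libraries, its adjusted p was 0.0179 and 4.89% of all genes passed. MRPL48 (chromosome 11, 73787316 to 73865133), also a mitochondria-specific protein gene, went the other way. It had 13.2, 10.6 and 12.6 CPM with actD and 21.7, 17.4 and 19.8 CPM with DMSO, a log2 difference of -0.70 (SE 0.20, unadjusted p = 0.010, edgeR adjusted p = 0.276). This gene was already among the lowest in RNA per exon kb.

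The other separated members differed less. MRPS11, a bacterial homolog of the small subunit platform, had 32.3, 30.4 and 34.2 CPM against 27.6, 28.4 and 16.9 CPM, a log2 difference of 0.41 (SE 0.24). MRPL18, a bacterial homolog that in the bacterial ribosome contacts 5S rRNA, had 51.4, 53.3 and 56.9 CPM against 50.8, 43.5 and 31.3 CPM, a difference of 0.36 (SE 0.22). MRPL32, a bacterial homolog that is processed by a mitochondrial protease before it joins the ribosome, had 95.6, 95.6 and 106.3 CPM against 83.1, 76.0 and 74.2 CPM, a difference of 0.35 (SE 0.17). In each of these 3 the lowest value came from the same library, DMSO replicate 3, and their adjusted p by edgeR lay between 0.434 and 0.516. MRPL54 and MRPL22 were separated by 0.25 and 0.16.

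A further 15 members were looked up for their role, and the arms of all 15 overlapped at 72 h. The stalk proteins MRPL10 and MRPL12, which recruit translation factors, differed by -0.22 (SE 0.65) and -0.41 (SE 0.37). MRPL3, near the peptidyl transferase centre, differed by -0.30 (SE 0.25), MRPL44, an RNase III-like protein, by -0.23 (SE 0.22), and MRPL45, at the exit tunnel beside the inner membrane, by -0.30 (SE 0.29). MRPL58, a peptidyl-tRNA hydrolase that became part of the large subunit, differed by 0.40 (SE 0.47). In the small subunit MRPS12, at the decoding site, differed by 0.26 (SE 0.30), MRPS7, a head protein, by -0.16 (SE 0.25), and MRPS27, a pentatricopeptide repeat protein, by -0.46 (SE 0.34). The 3 paralogs MRPS18A, MRPS18B and MRPS18C differed by -0.00006, -0.05 and 0.44 with standard errors of 0.23, 0.18 and 0.24. MRPS30, MRPS36 and MRPL23 differed by -0.16, 0.24 and -0.15. The smallest adjusted p in this group by edgeR was 0.482, that of MRPS18C.

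Several members varied more between libraries of the same group than between the arms. In RNA at 72 h the highest library was more than 3-fold above the lowest within the DMSO group for 7 members (MRPL10, MRPL11, MRPL19, MRPL30, MRPL58, MRPS17 and MRPS33) and within the actD group for 4 (MRPL10, MRPL19, MRPL49 and MRPS17). MRPS17 had 7, 141 and 4438 counts with actD and 296, 2113 and 176 with DMSO, and its exons overlap those of NIPSNAP2 and AC092647.5 on the same strand. The part of this overlap in the spread was not tested. MRPL19 had 23.8, 28.3 and 130 CPM with actD and 29.6, 87.5 and 116 CPM with DMSO. MRPL10 was highest in replicate 3 of both arms, with 41.7 CPM (actD) and 53.4 CPM (DMSO). Of the 78 members, 16 have exons that overlap another gene on the same strand, 29 overlap a gene on the opposite strand, and 34 have at least 1 named pseudogene in the annotation. How the authors' counting treated such reads, and strand, is not stated, so these genes are uncertain.

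**Figure D2:**
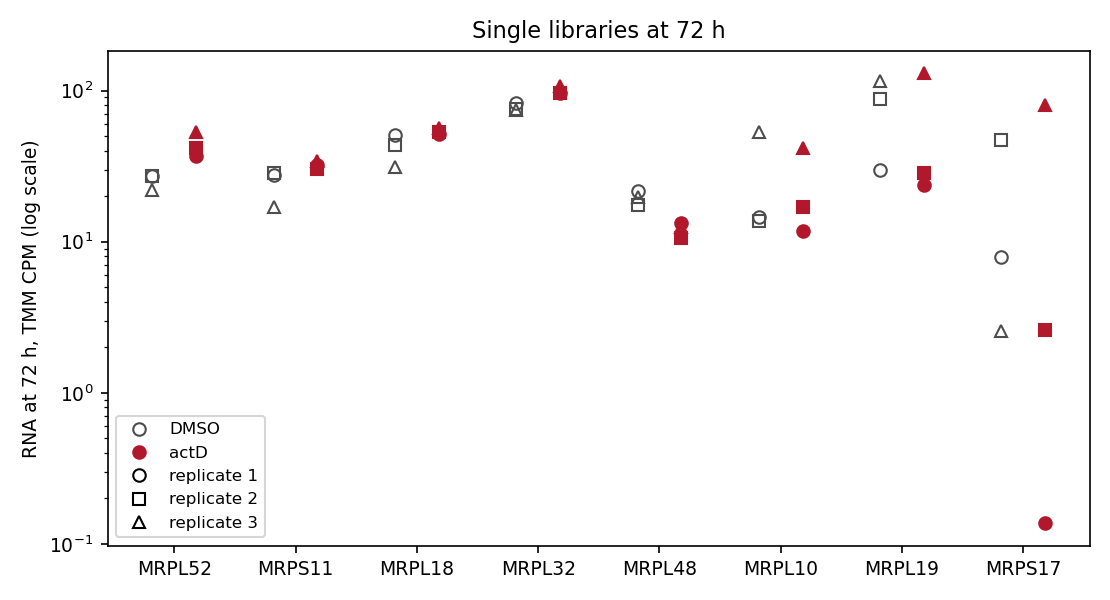
Points are single RNA libraries at 72 h on a log axis of TMM CPM, DMSO open and actD filled, with a symbol for each replicate number. MRPL52, MRPS11, MRPL18, MRPL32 and MRPL48 have separated arms, while MRPL10, MRPL19 and MRPS17 scatter within each arm, MRPS17 from 0.137 to 79.9 CPM with actD.

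At 2 weeks the libraries named actd and named dmso again differed little in these genes. The median log2 difference (named actd minus named dmso) was 0.03, against -0.02 over 21137 genes, with 0.05 for the large and -0.007 for the small subunit genes, and 75 of 78 lay within 0.5 of 0. By edgeR none of the 78 passed the adjusted threshold, as 0% of all genes did, and 4 members had an unadjusted p under 0.05, against 8.93% of all genes. DESeq2 called 1 member, MRPS27, and 0.932% of all genes. 6 members were higher in all 3 libraries named actd (7.86% of all genes) and none was lower in all 3 (7.83%). MRPL49 had 49.7, 54.9 and 52.7 CPM against 42.6, 42.6 and 15.3 CPM, a log2 difference of 0.65 (SE 0.34). MRPL42, a mitochondria-specific gene, had 97.7, 119 and 101 CPM against 57.4, 78.4 and 90.4 CPM, a difference of 0.49 (SE 0.18). MRPS14 and MRPS11, bacterial homologs of the small subunit, differed by 0.29 (SE 0.12) and 0.25 (SE 0.12). Adjusted p by edgeR lay between 0.512 and 0.615 for these 4. MRPS27 had 94.3, 84.5 and 33.5 CPM in the libraries named actd and 34.8, 33.5 and 31.5 CPM in those named dmso, so 1 of the 3 libraries lay within the range of the other arm (log2 difference 1.09, SE 0.33). With the titles in place of the library names every one of these signs is reversed.

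The effect of actD on RNA was not found to differ between 72 h and 6 h for any member in the treatment-by-time test of edgeR, where 0.0165% of 24251 genes passed. Unadjusted p was under 0.05 for 3 members, against 8.02% of genes. The interaction was 0.76 (SE 0.29, adjusted p = 0.577) for MRPL52, -0.73 (SE 0.29, adjusted p = 0.587) for MRPL48 and -1.68 (SE 0.76, adjusted p = 0.615) for MRPL49. DESeq2 called none of the members and 0.652% of all genes.

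Ribosome footprints gave another picture at 72 h, where the members as a group were higher with actD although no single gene passed the test. Counts of all 78 members made up 0.454%, 0.418% and 0.633% of the protein-coding footprints in the actD libraries and 0.371%, 0.397% and 0.0932% in the DMSO libraries. The Wilson 95% intervals of the lowest actD and the highest DMSO library, 0.384% to 0.455% and 0.356% to 0.442%, overlap. The means were 0.502% ± 0.115 and 0.287% ± 0.168 (SD, n = 3), a ratio of 1.75, and the arms did not overlap. DMSO replicate 3 held only 25 member counts, and without it the ratio was 1.31, with the arms still apart. Summed over the 78 genes in TMM CPM the values were 1828 ± 339 and 810 ± 434, 2.26-fold, also without overlap. DMSO replicate 3 lowered this DMSO mean too, with 311 CPM against 1018 and 1100 CPM in replicates 1 and 2. The exact permutation test cannot go below p = 0.1 with 3 libraries against 3.

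With the filter on low counts set aside, 66 of the 78 members had at least 1 footprint in the 72 h libraries. 63 of these 66 (95.5%) had a higher mean CPM with actD, against 62.6% of 10938 protein-coding genes with a count. The counts of 14 of the 66 came from actD libraries alone, which fixed their direction, as they did for 2363 (21.6%) of the protein-coding genes. Of the 51 members with a count in both arms 49 (96.1%) were higher with actD, against 54.6% of such protein-coding genes. The 3 members with a lower mean were MRPL19, MRPL55 and MRPS36, all at low counts. The share was 95.1% in the large and 96.0% in the small subunit. Without DMSO replicate 3 it was 84.8% of 66 members against 61.3% of protein-coding genes, and without actD replicate 3, the library with most member counts, 85.0% of 60 against 56.3%. Among genes with a count in both arms these values were 82.4% of 51 against 51.7% and 87.8% of 49 against 52.9%. At 6 h 37.5% of 56 members were higher with actD, the same as the 37.5% of protein-coding genes, and at 2 weeks 68.9% of 61 against 48.1%. Depth moved with the treatment at 72 h: protein-coding footprints numbered 127856 to 283435 in the actD libraries and 26831 to 121227 in the DMSO libraries. The mitochondrial rRNA genes took 12.4% to 21.0% of all footprint counts in the actD libraries and 4.80% to 10.6% in the DMSO libraries. The part of either in this difference was not tested.

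**Figure D3:**
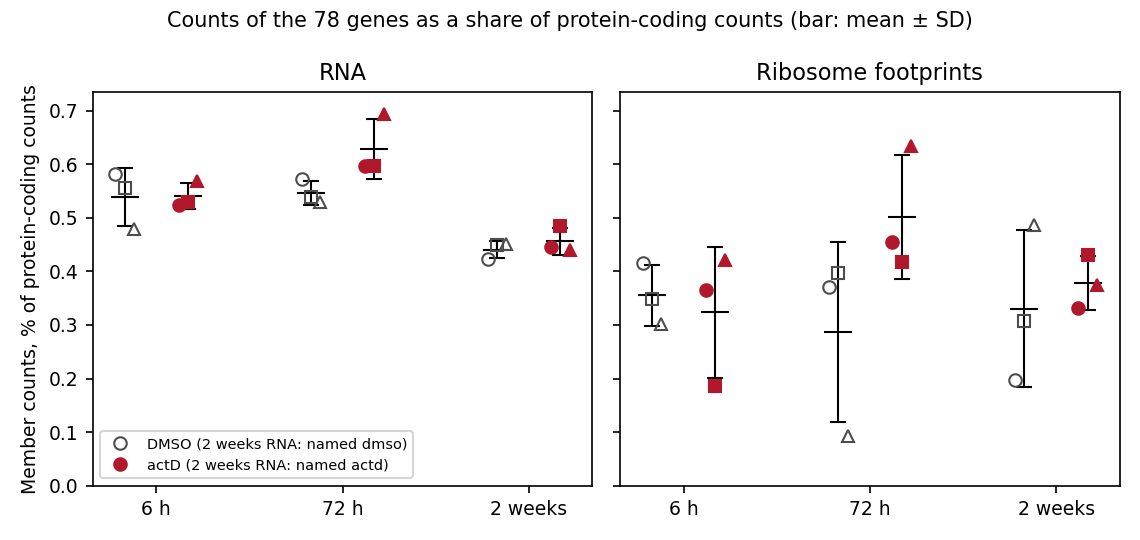
The vertical axis gives the counts of the 78 genes as a percentage of protein-coding counts in each library, RNA on the left and footprints on the right, with DMSO open, actD filled and bars for mean ± SD (n = 3). In footprints at 72 h all 3 actD libraries lie above the 3 DMSO libraries, of which replicate 3 is lowest at 0.0932%.

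The filter on low counts left 20 members for the test at 72 h, 13 of the large and 7 of the small subunit. Since a gene could pass through its actD libraries alone, the counts over these 20 describe them and not all members. 19 of the 20 had a positive log2 fold change, against 52.8% of all genes, and their median was 0.88, against 0.07 over all 2426 genes tested. The large subunit median was 0.98 and the small subunit median 0.76. None of the 20 passed the adjusted threshold in edgeR, which 3.79% of all genes passed, while 7 had an unadjusted p under 0.05, against 27.3% of all genes. All 7 were higher with actD, against 14.2% of all genes. DESeq2 called 1, MRPL18, and 4.41% of all genes. For 10 of the 20 every actD library lay above every DMSO library (19.5% of all genes), and for none the reverse (16.2%).

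MRPL18 had the largest difference, with 29, 14 and 37 footprints with actD and 0, 4 and 0 with DMSO. It entered the test only through its actD libraries, the arm where it was high. The arms did not overlap after scaling, and the log2 fold change was 3.01 (SE 0.78, edgeR adjusted p = 0.071). With DESeq2 its adjusted p was 0.0427 and with TMM over protein-coding genes only 0.0468, and over the other alternatives it lay between 0.0597 and 0.267. DESeq2 called 4.41% of all genes and TMM over protein-coding genes only 8.72%. Its size rested on single libraries. The log2 fold change was 2.02 without DMSO replicate 1, and 7.34 without DMSO replicate 2, a fitted value against 0 footprints that is no bound. MRPL53, a mitochondria-specific protein gene, had 43, 16 and 67 footprints against 7, 9 and 0, a log2 fold change of 1.73 (SE 0.55, edgeR adjusted p = 0.101). MRPL32 had 46, 23 and 73 against 10, 9 and 0 (1.73, SE 0.51, edgeR adjusted p = 0.0851). MRPS7 of the small subunit had 20, 14 and 39 against 4, 8 and 0 (1.37, SE 0.57). MRPL41 and MRPL38, both specific to mitochondria, differed by 1.11 and 1.10. MRPL15, a bacterial homolog, was the only tested member below 0, with 20, 13 and 23 footprints against 16, 11 and 0 and a log2 fold change of -0.01 (SE 0.47). Its sign was positive with DESeq2, with TMM over protein-coding genes only and in 1 fit over all 3 time points (0.12, 0.12 and 0.20).

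**Figure D4:**
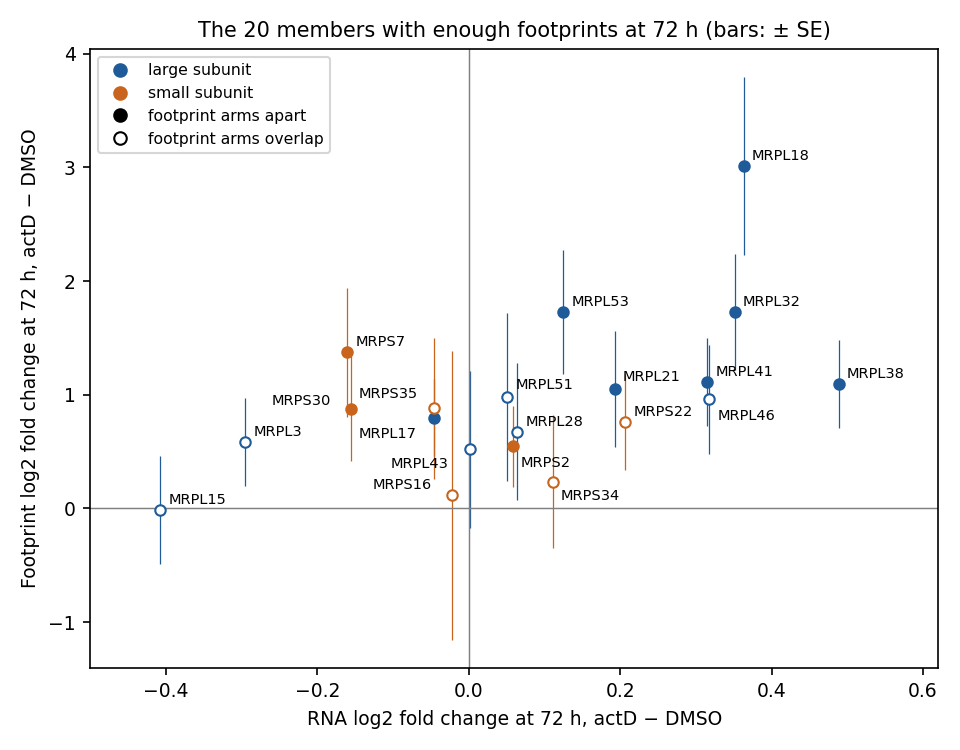
Each point is 1 of the 20 members tested in footprints at 72 h, placed by its RNA log2 fold change (horizontal) and its footprint log2 fold change (vertical, bars ± SE), with large subunit genes in blue, small subunit genes in orange and filled points for separated footprint arms. 19 of the 20 points lie above 0 in footprints, up to 3.01 for MRPL18, while in RNA they lie on both sides of 0.

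Translational efficiency, the footprint change relative to the RNA change, was tested for the same 20 members at 72 h. The same limit holds: a gene could pass the footprint filter through its actD libraries alone. The counts and medians over these 20 therefore describe them and not all members. 18 had a positive log2 change (51.9% of all genes), with a median of 0.66 against 0.03 over 2311 genes, and the medians of the large and small subunit genes were 0.69 and 0.42. None passed in edgeR, where 0.433% of all genes did. 4 had an unadjusted p under 0.05, against 14.9% of all genes, and DESeq2 called MRPL18 and 3.94% of all genes. MRPL18 differed by 2.56 (SE 0.74, edgeR adjusted p = 0.141) and MRPL53 by 1.44 (SE 0.65, edgeR adjusted p = 0.321). The footprints of MRPL18 met the filter only through the actD arm. At the low end were MRPS34 with -0.07 (SE 0.58) and MRPS16 with -0.02 (SE 1.27), whose footprints were 65, 0 and 3 with actD and 19, 10 and 0 with DMSO. Leaving out DMSO footprint replicate 2 gave 2 calls, MRPL18 and MRPL50, where 0.673% of 2673 genes were called. Both had 0 footprints in the remaining DMSO libraries. Leaving out actD footprint replicate 2 gave 1, MRPL35, where 1.34% of 3071 genes were called. MRPL35 had 0 in all 3 DMSO libraries and 26, 0 and 44 with actD, so it entered the test only through the arm where it was high. Without DMSO footprint replicate 1 the value of MRPL18 was 1.47.

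At 6 h and 2 weeks only 2 members each reached the footprint filter. At 6 h MRPL3 had 5, 10 and 21 footprints with actD and 30, 21 and 5 with DMSO (log2 fold change 0.19, SE 0.60), and MRPS35, a mitochondria-specific small subunit gene, had 14, 8 and 15 against 17, 16 and 12 (0.31, SE 0.38). Neither passed in edgeR, as 0% of 1212 genes did, and neither had an unadjusted p under 0.05 (3.14% of genes). At 2 weeks MRPL3 had 14, 18 and 11 against 7, 23 and 12 (0.04, SE 0.30) and MRPL32 had 9, 15 and 12 against 0, 7 and 13 (0.81, SE 0.76), with no call among them, 0% of 1598 genes called and 8.57% at an unadjusted p under 0.05. DESeq2 called neither pair of members, against 0.99% of genes at 6 h and 0% at 2 weeks. Their translational efficiency at 6 h differed by 0.38 (MRPL3, SE 0.50) and 0.40 (MRPS35, SE 0.46), and at 2 weeks by -0.21 (MRPL3, SE 0.36) and 0.69 (MRPL32, SE 0.68). None of these passed in edgeR, as 0% of 951 and of 1441 genes did, with 5.26% and 5.14% at an unadjusted p under 0.05, and DESeq2 called no member and 0.105% and 0.208% of genes.

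The member share of protein-coding footprints overlapped between the arms at 6 h (0.324% ± 0.123 with actD, 0.355% ± 0.0572 with DMSO) and at 2 weeks (0.379% ± 0.0499 and 0.330% ± 0.146; SD, n = 3). Whether the footprint effect differed between time points was tested for 23 members at 72 h against 6 h, where 0% of 3012 genes passed, and for 34 members at 2 weeks against 72 h, where 0.0532% of 3760 genes passed. No member passed either test in edgeR. Unadjusted p was under 0.05 for 2 members (6.54% of genes) and 1 member (7.5% of genes), and DESeq2 called no member and 0.166% and 0.346% of genes. The members' medians were 1.10 at 72 h against 6 h, beside 0.22 over all genes, and -0.66 at 2 weeks against 72 h, beside -0.12. Genes could pass these filters through their 72 h actD libraries alone, the group where members were high. These medians therefore describe the tested members only. At 72 h against 6 h the value of MRPL18, 2.94, had an SE of 5133, with 0 footprints in all 6 h libraries.

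In RNA the share of protein-coding counts depended on the scale at 72 h. The members took 0.596%, 0.596% and 0.693% of protein-coding counts with actD and 0.572%, 0.539% and 0.529% with DMSO, so the arms were apart (0.629% ± 0.0559 and 0.547% ± 0.0224, SD, n = 3, a ratio of 1.15). In TMM CPM, however, their sum was 3669 ± 479 with actD and 3602 ± 244 with DMSO, 1.02-fold, and the arms overlapped. Protein-coding genes took 54.3% to 62.4% of all RNA counts with actD and 63.2% to 67.6% with DMSO, and the mitochondrial rRNA genes took 24.6% to 32.3% and 15.5% to 22.5%. The part of these shifts in the member share was not tested. At 6 h the share was 0.541% ± 0.0245 and 0.539% ± 0.0535, and at 2 weeks 0.456% ± 0.0249 (named actd) and 0.440% ± 0.0158 (named dmso), with overlap at both times.

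The balance between large and small subunit genes did not separate the arms in any of the 6 tables. The split was by symbol, so MRPS30, MRPS18A and MRPS36 were summed with the small subunit. The log2 ratio of summed large to summed small subunit counts in RNA was 0.69 ± 0.05 with actD and 0.68 ± 0.08 with DMSO at 6 h, 0.72 ± 0.11 and 0.72 ± 0.09 at 72 h, and 0.59 ± 0.13 (named actd) and 0.64 ± 0.06 (named dmso) at 2 weeks. In footprints it was 1.05 ± 0.28 and 0.70 ± 0.25 at 6 h, 1.23 ± 0.13 and 1.16 ± 0.20 at 72 h, and 0.96 ± 0.14 and 0.92 ± 0.53 at 2 weeks (SD, n = 3 each). The arms overlapped in all 6. At 72 h the RNA ratios of same-numbered actD and DMSO libraries lay close to each other, at 0.83 and 0.82, 0.71 and 0.69, and 0.61 and 0.65. This did not hold at the other times. At 6 h they were 0.63 and 0.74, 0.70 and 0.72, and 0.74 and 0.60. At 2 weeks (named actd and named dmso) they were 0.44 and 0.65, 0.69 and 0.58, and 0.62 and 0.69. In footprints at 72 h the summed CPM of the large subunit was 1277 ± 208 with actD and 552 ± 287 with DMSO, 2.31-fold, and that of the small subunit 551 ± 132 and 258 ± 148, 2.14-fold, with the arms apart in both. DMSO replicate 3 lowered both DMSO means, with 224 CPM (large) and 87.1 CPM (small). Replicates 1 and 2 had 674 and 758 CPM (large) and 344 and 342 CPM (small). As shares of protein-coding footprints the large subunit took 0.350% ± 0.0711 and 0.195% ± 0.112, with the arms apart. The small subunit took 0.152% ± 0.0445 and 0.0916% ± 0.0568, and its arms overlapped.

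**Figure D5:**
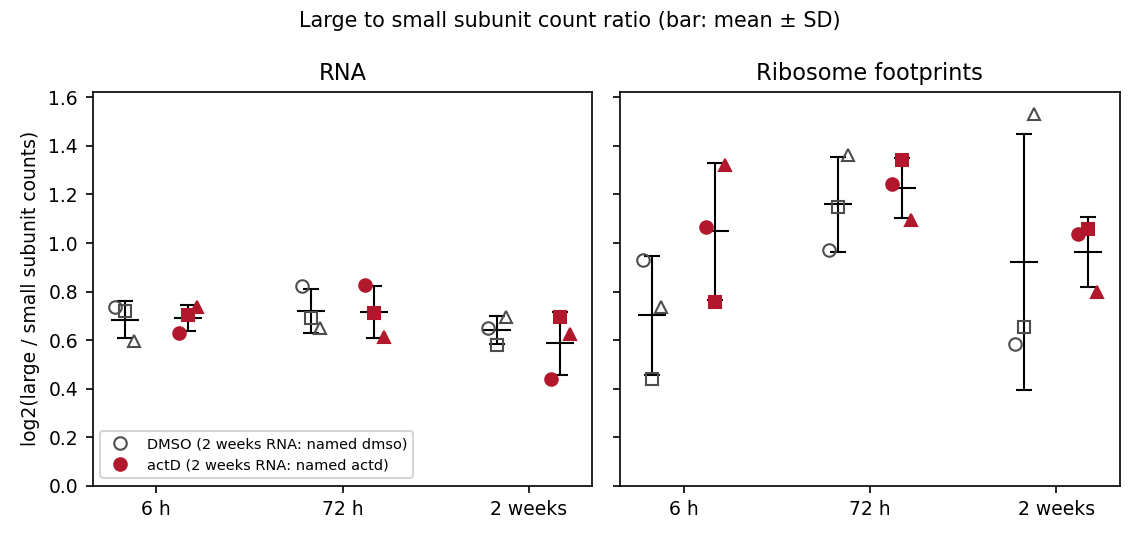
The vertical axis gives log2 of the summed counts of the 49 MRPL genes over those of the 29 MRPS genes in each library. RNA is on the left and footprints on the right, with DMSO open, actD filled and bars for mean ± SD (n = 3). MRPS30, MRPS18A and MRPS36 are summed with the MRPS genes. The arms overlap at every time, and the RNA values lie between 0.44 and 0.83.

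Proteins with and without a bacterial homolog were also compared. In RNA at 72 h the median log2 fold change was 0.02 for the 30 large subunit bacterial homologs, 0.10 for the 21 large subunit proteins specific to mitochondria (MRPS30 and MRPS18A included), 0.11 for the 16 small subunit bacterial homologs and -0.09 for the 10 small subunit proteins specific to mitochondria. In footprints at 72 h 7, 7, 3 and 3 of them could be tested, with medians of 0.80, 0.98, 0.55 and 0.76.

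Other genes of mitochondrial translation were compared from lists beside the members. In RNA at 72 h none passed in edgeR of the 5 mitochondrial ribosomal proteins with other symbols (median -0.18), the 25 assembly factors (-0.17), the 16 translation factors (-0.11), the 8 transcription genes (-0.32) and the 2 mitochondrial rRNAs (0.48). The extremes of each list were CHCHD1 (0.15) and DAP3 (-0.48), MRM1 (0.67) and DDX28 (-0.82), MTRF1L (0.52) and LRPPRC (-1.27), and TEFM (0.26) and PPARGC1B (-1.27). LRPPRC, which stabilises mitochondrial mRNAs, had 107.1 ± 35.1 CPM with actD and 259 ± 33.8 CPM with DMSO (SD, n = 3), with separated arms (SE 0.27, unadjusted p = 0.0017, edgeR adjusted p = 0.230). In footprints at 72 h 11 genes of these lists could be tested and 1 was called by edgeR, where 3.79% of all genes were called. This was DHX30, an RNA helicase of mitoribosome assembly. It fell from 153 ± 68.0 CPM with DMSO to 26.1 ± 4.64 CPM with actD (log2 fold change -2.58, SE 0.43, adjusted p = 0.0454), opposite in sign to 19 of the 20 tested members. The call held in 5 of 12 alternatives, and the value lay between -2.79 and -2.16 in all 12. Adjusted p was 0.168 with the looser filter, 0.215 with library totals and 0.142 with the replicate block. It was 0.188 and 0.154 without DMSO replicate 1 or 2, and 0.148 and 0.130 without actD replicate 1 or 2. In these settings 0% of all genes were called, apart from 0.206% with library totals. The 2 tested ribosomal proteins with other symbols, AURKAIP1 and GADD45GIP1, both differed by 0.69 there, beside a median of 0.88 over the 20 tested members.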

How the data were processed

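The authors deposited 1 table of estimated counts (expected counts) per gene for each assay and time point. HISAT2, StringTie and the build hg38 are named, without roles, per the submitters' processing notes; the handling of multimapping reads and of strand is not given in the sources used here. RNA values at 6 h and 2 weeks lie on steps above 1, whose origin is not given in the sources used here. All 36 columns were used and 0 were left over. Without their version, 99.3% of the identifiers matched GENCODE release 29 (RNA and footprints), and names and coordinates come from it.

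Each table was fitted alone with edgeR 4.0.16 in R 4.3.3 (quasi-likelihood test, two-sided, TMM, filterByExpr, Benjamini-Hochberg over all genes tested, call at an adjusted p under 0.05). Translational efficiency was the assay-by-treatment interaction over 12 libraries, and time differences the treatment-by-time interaction. Sums over members have no p. DESeq2 1.42.0, other scalings and filters, a replicate block and leaving out each library were alternatives. Members and lists were chosen with earlier results of these data known. Genes named are members that passed a test; in RNA the 4 largest changes each way among separated members; in footprints and translational efficiency the 2 largest and 2 lowest; the 3 highest and 3 lowest levels in each subunit (2 highest for footprints); members listed at 0 in all libraries; 15 members of fixed role; and the extremes of each related list. Others named were chosen after their values were seen. Deviations from group means were correlated between same-numbered libraries; not every pair exceeded 0.1, so numbers were not taken as pairs. Intervals cover only counting error: PCR copies are not separate molecules. The fits were tested on simulated data.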

Additional observations from a re-analysis of the deposited data

How the results depend on the processing

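Over the 12 comparisons, 165 of 173 alternatives gave the same number of called members, 0. The main fits called only 0% to 3.79% of all genes, so this count says little about the members. In footprints at 72 h the looser filter and the replicate block called 0 genes of any kind. The fits without DMSO replicate 1 or 2, or without actD replicate 1 or 2, also called 0. In RNA at 72 h 1 fit over all 3 time points called 1 (MRPL52), and in RNA at 2 weeks DESeq2 called 1 (MRPS27). In footprints at 72 h DESeq2 and TMM over protein-coding genes only each called 1 (MRPL18), where 4.41% and 8.72% of all genes were called. In translational efficiency at 72 h DESeq2 called 1 (MRPL18), a looser filter on low counts called 1 (MRPL36, with 0 footprints in all DMSO libraries and 11, 6 and 11 with actD), and leaving out single libraries called 0 to 2. The share of all genes called was 0.146% with the looser filter and 0.303% to 1.34% without single libraries. The 2 came without DMSO footprint replicate 2, where MRPL18 is at 0 in the remaining DMSO libraries and its fitted change is no bound. As summed TMM CPM the log2 difference of the member share in RNA at 72 h was 0.026 in place of 0.20. The cause of these changes was not tested.

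Over all genes DESeq2 called 204, 605 and 197 in RNA at 6 h, 72 h and 2 weeks, where edgeR called 0, 1 and 0, and 1 fit over all 3 time points called 1212 at 72 h. In RNA at 2 weeks library totals in place of TMM gave 6. In footprints at 72 h edgeR called 92, TMM over protein-coding genes only 182, library totals 5, and the looser filter 0. In footprints at 6 h DESeq2 called 12 against 0. In translational efficiency at 72 h edgeR called 10 and DESeq2 91, and at 6 h and 2 weeks DESeq2 called 1 and 3 against 0. For time differences DESeq2 called 158, 5 and 13 against 4, 0 and 2.

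Of 356 alternatives for named genes, 310 kept direction and side of the threshold, 5 passed it and 41 changed sign. By title the 2-week RNA differences were -0.65 (MRPL49), -0.49 (MRPL42), -0.29 (MRPS14) and -0.25 (MRPS11), and the efficiency of MRPL3 was 0.22. Library totals in place of TMM gave -0.28 (MRPS35) and -0.33 (MRPL3) in footprints at 6 h, -0.070 (MRPL3) in footprints at 2 weeks, and -0.29 (MRPS35) and -0.15 (MRPL3) in efficiency at 6 h. MRPL15 in footprints at 72 h was 0.12 with DESeq2, 0.075 with the looser filter, 0.12 with protein-coding TMM and 0.20 in 1 fit over the times. Efficiency at 72 h was 0.029 for MRPS34 with the looser filter and 0.028 with protein-coding TMM, and for MRPS16 0.17 with DESeq2, 0.078 with the looser filter and 0.095 with protein-coding TMM. With 1 library left out, footprint changes ranged from -0.13 to 0.55 (MRPS35, 6 h), -0.41 to 0.56 (MRPL3, 6 h), -0.22 to 0.23 (MRPL15, 72 h) and -0.16 to 0.27 (MRPL3, 2 weeks). MRPL18 ranged from 2.02 to 7.34. Efficiency ranged from 1.47 to 12.24 (MRPL18, 72 h), -0.068 to 0.68 (MRPL3, 6 h), -0.41 to 0.053 (MRPL3, 2 weeks), -0.35 to 0.19 (MRPS34, 72 h) and -3.84 to 0.63 (MRPS16, 72 h). Apart from MRPL18, these genes had small changes at low footprint counts.

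With the replicate block 0 members were called in any comparison fitted with it, the members' median in footprints at 72 h was 0.79, MRPL15 was 0.14 and the adjusted p of MRPL18 was 0.153. The block left 0 of the 92 genes called in footprints at 72 h and 0 of 10 in efficiency. The labels do not say that a number marks a shared culture.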
